A study of Mus musculus with 8 samples.

Results

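The genes described here are 9 outputs of the circadian clock in mouse liver: Dbp, Tef, Hlf, Nfil3, Rora, Bhlhe40, Bhlhe41, Ciart and Usp2. They were chosen by name, and all 9 were found among the 30627 genes measured. Usp2 encodes a deubiquitinating enzyme and not a transcription factor. The others encode transcription factors or, in the case of Ciart, a transcriptional corepressor. Whole liver RNA was hybridised to 8 Affymetrix arrays, 1 for each of 8 male C57BL/6 mice that had all been fed a high fat diet for 13 weeks as a model of diet-induced hypercholesterolaemia. The treated group was 4 mice given 5 intraperitoneal injections of anti-miR-128-3p, which blocks the microRNA miR-128-3p. The control group was 4 mice given 5 control injections. The control is named as a vehicle in a single field of the labels, and the same field names the microRNA itself as the treatment, so the groups follow the sample titles. The sources used here do not give age, fasting state or the hour at which the livers were taken. That each array is a separate mouse is read from the numbered titles. If it is not, the p-values measure only the spread between arrays.

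In the circadian clock, the activators CLOCK and BMAL1 (gene Arntl) bind E boxes in DNA and switch on their own repressors, the PER and CRY proteins, so that the loop runs about once a day. The genes treated here carry that rhythm to the rest of the liver. DBP, TEF and HLF are the PAR bZIP factors, activators that bind D boxes in genes of drug, bile acid and fat metabolism, while NFIL3 (also known as E4BP4) is a repressor that binds the same boxes at the opposite time of day. RORα activates Arntl through response elements that the REV-ERB repressors share. BHLHE40 and BHLHE41 (DEC1 and DEC2) compete for E boxes, CIART represses CLOCK-BMAL1, and USP2 is an enzyme whose transcript is strongly rhythmic in liver. Levels of most of these transcripts swing over the day, so the hour of collection bears on any single level.

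The microRNA that was inhibited is shown because its seed, bases 2 to 8 from the 5′ end (in capitals), is what pairs with target transcripts. RefSeq (GRCm38.p6) lists the same mature sequence of 21 bases at chr1:128202404-128202424 on the plus strand and chr9:112118644-112118664 on the minus strand. Seed sites in the transcripts of the 9 genes were not analysed here.
mmu-miR-128-3p: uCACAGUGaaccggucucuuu

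Promoter windows from 250 bases before to 50 bases after the annotated start site were on hand for 8 of the 9 genes (9 windows, of which 2 belonged to Tef). They were searched on both strands for the E box CACGTG, for the D box as TTATGTAA or TTACGTAA, and for AGGTCA, the core of the site that the ROR and REV-ERB receptors bind. An E box was found in the windows of Ciart, Bhlhe41 and Tef, and the motif occurs in 7.15% of the 32851 windows of all genes. Ciart held 3 E boxes, starting 116, 58 and 44 bases before its start site. AGGTCA was found only in the Nfil3 window among these 8 genes, on the reverse strand (read as TGACCT), against 16.3% of all windows. No D box of either form was found in a window of the 8 genes, and TTATGTAA occurs in 0.938% and TTACGTAA in 0.119% of all windows. The Ciart and Nfil3 stretches are shown, with the matches in capitals, because Ciart held the most E boxes and Nfil3, the D-box repressor, held the only receptor core site. A match of letters is a description and shows no binding. The first is 130 bases at chr3:95882229-95882358 and the second 60 bases at chr13:52981040-52981099, both GRCm38.p6, minus strand, ending at the base before the start site.
Ciart: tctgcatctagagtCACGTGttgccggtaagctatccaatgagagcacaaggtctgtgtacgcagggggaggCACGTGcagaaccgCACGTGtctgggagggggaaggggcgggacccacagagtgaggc
Nfil3: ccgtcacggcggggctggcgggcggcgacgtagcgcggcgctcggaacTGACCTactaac

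The arrays resembled each other closely across genes (r = 0.992 to 0.996), and their median signals ran from 5.04 to 5.12 on the log2 scale. The tissue label was borne out by the hepatocyte markers, whose mean log2 signal over 7 genes lay between 12.4 and 12.6 in all 8 livers. Control replicate 1 stood apart in 8 neutrophil markers, with a mean log2 signal of 6.38 against 4.09 to 4.46 in the other controls and 4.12 to 4.57 in treated livers. Control replicate 4 had the highest mean over 7 lymphocyte markers, 5.50 against 4.95 to 5.22 in the other 7 livers. The differences of all 9 genes without each of these livers follow the account of the single genes.

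None of the 9 genes differed between anti-miR-128-3p and control livers beyond the spread between mice. Mean signals were lower in treated livers for 8 of the 9 genes and higher for Nfil3, the repressor that opposes the PAR bZIP factors; over all genes tested, 50.9% had a lower mean in treated livers. The log2 differences (treated minus control) ran from -0.23 for Usp2 to 0.11 for Nfil3, with a median of -0.17 over the 9 genes against -0.00167 over all genes. By limma with Benjamini-Hochberg adjustment over all 30627 genes, 0 of the 9 passed an adjusted p of 0.05, as did 0 genes in all (0% called). At an unadjusted p under 0.05, 0 of the 9 passed, against 7.63% (2337) of all genes, and the groups overlapped in all 9, whereas they did not overlap in 4.41% of all genes. Leaving out control replicate 1 gave a median of -0.035, and leaving out treated replicate 1 gave -0.081. The count of genes with lower treated means was 8 of 9 without any single liver except treated replicate 1, without which it was 7 of 9.

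**Figure D1:**
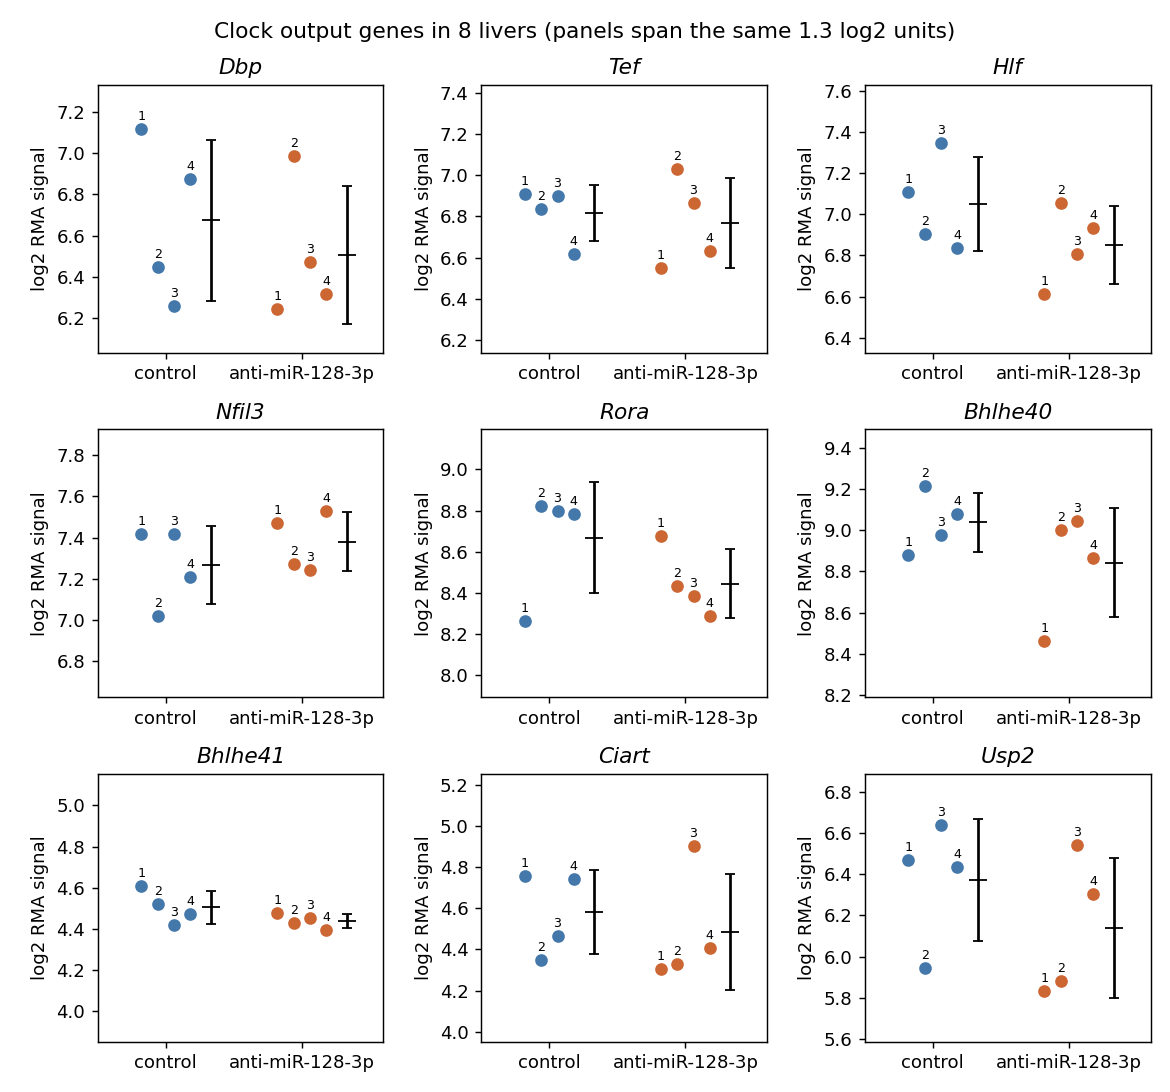
Signal of each of the 9 genes in each liver (y axis, log2 RMA signal; numbers are replicate numbers), with the mean and SD of the 4 livers of a group in black; every panel spans the same log2 distance. The control and treated points overlap in all 9 panels, and the signals of Bhlhe41 and Ciart lie near the background of the arrays.

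Among the PAR bZIP activators, Dbp varied most from liver to liver. Its log2 signal was 7.12, 6.45, 6.26 and 6.87 in control replicates 1 to 4 and 6.24, 6.99, 6.47 and 6.32 in treated replicates 1 to 4. Control replicates 1 and 4 and treated replicate 2 were high, the other 5 livers were low, and each group held both kinds. The means were 6.67 ± 0.39 in control and 6.51 ± 0.34 in treated livers (SD, n = 4 each), a difference of -0.17 ± 0.21 (SE; limma adjusted p = 0.914). The 95% interval, -0.66 to 0.32, runs from a fold of 0.635 to 1.25, so that a decrease or an increase of moderate size was not detectable with 4 livers a group. Leaving out control replicate 1 gave -0.021, and leaving out treated replicate 2 gave -0.33.

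Tef, a PAR bZIP factor with 2 annotated start windows, was nearly level. Its log2 signal was 6.91, 6.84, 6.90 and 6.62 in the controls and 6.55, 7.03, 6.87 and 6.63 in the treated livers. Both the highest and the lowest value belonged to the treated group. The difference was -0.048 ± 0.11 (95% interval -0.30 to 0.21, limma adjusted p = 0.971), and it turned to 0.026 without treated replicate 1.

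Hlf, the PAR bZIP factor known also from a leukaemia fusion gene, had log2 signals of 7.11, 6.90, 7.34 and 6.84 in the controls and 6.61, 7.06, 6.81 and 6.93 in the treated livers. Control replicate 3 was the highest and treated replicate 1 the lowest, with the other 6 livers intermixed. The means were 7.05 ± 0.23 and 6.85 ± 0.19 (SD, n = 4 each), which differed by -0.20 ± 0.13 (95% interval -0.48 to 0.091, limma adjusted p = 0.796). Without control replicate 3 the difference was -0.098.

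Nfil3, which represses through D boxes and is also required for natural killer cells, was the single gene of the 9 with a higher mean in treated livers. Its log2 signal was 7.42, 7.02, 7.42 and 7.21 in the controls and 7.47, 7.27, 7.24 and 7.53 in the treated livers. Treated replicates 4 and 1 were the highest and control replicate 2 the lowest, and the ranges overlapped. The difference was 0.11 ± 0.10 (fold 1.08, 95% interval 0.918 to 1.27, limma adjusted p = 0.864), and it was 0.031 without control replicate 2. Lymphocyte markers, natural killer genes Nkg7 and Ncr1 among them, had a median log2 difference of 0.025 over 7 genes (4 higher, 3 lower, 0 at an unadjusted p under 0.05). Their mean log2 signal ran from 4.95 to 5.50 in control and from 5.05 to 5.22 in treated livers, and their part in the Nfil3 level was not tested. In whole liver RNA, fewer cells of a type and less RNA per cell cannot be told apart.

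Rora, the orphan nuclear receptor that activates Arntl, was measured by 3 probe sets, of which the brightest is the value used. The names of the brightest and the third mark them as unmapped. The second, described below, is by its name the one placed on chromosome 9, where the Rora promoter window lies. By the brightest probe set the log2 signal was 8.26, 8.82, 8.80 and 8.78 in the controls and 8.68, 8.43, 8.38 and 8.29 in the treated livers. In the control group 3 livers lay above every treated liver, while control replicate 1 lay below all of them. The difference was -0.22 ± 0.13 (95% interval -0.53 to 0.084, limma adjusted p = 0.774).

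Leaving out control replicate 1, the liver with high neutrophil markers, gave a Rora difference of -0.36 (limma adjusted p = 0.378), the smallest adjusted p that any of the 9 genes reached without a single liver. The second probe set of Rora, with a mean log2 signal of 7.97, was low and high in the same livers as the brightest. It was lowest in control replicate 1 (7.77), at 7.87 to 7.88 in treated replicates 2 to 4, and between 8.005 and 8.12 in the other controls. Treated replicate 1 was the highest of the 8 livers by the second probe set (8.13), whereas by the brightest it lay below those controls. The difference by the second probe set had the same sign but was smaller, -0.056 ± 0.09. The third, at 5.42, differed by 0.13 ± 0.13 in the opposite direction. It was highest in treated replicate 1, at 5.85, against 5.15 to 5.55 in the other 7 livers. Neither the second nor the third passed (limma adjusted p = 0.948 and 0.885 over 31080 probe sets).

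Bhlhe40 and Bhlhe41 encode related E-box repressors, and only Bhlhe40 was well above background. Bhlhe40, which is induced by feeding, hypoxia and many other signals besides the clock, was at 8.88, 9.22, 8.98 and 9.08 in the controls and 8.46, 9.002, 9.04 and 8.86 in the treated livers (log2 signal). Treated replicate 1 was the lowest, and the other 3 treated livers lay within the control range or just below it. The difference was -0.19 ± 0.13 (95% interval -0.49 to 0.10, limma adjusted p = 0.801) and -0.068 without treated replicate 1. Bhlhe41 was dim, between 4.40 and 4.61 in all 8 livers, and its mean was above only 52.5% of the 5222 negative control rows of the arrays. Its difference, -0.068 ± 0.051 (limma adjusted p = 0.829), therefore says little about the transcript.

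Ciart, the CLOCK-BMAL1 corepressor with 3 E boxes in the stretch shown above, was also near background (its mean was above 54.1% of the negative control rows), and its lowest and highest livers were 1.51-fold apart. Its log2 signal was 4.76, 4.35, 4.47 and 4.74 in the controls and 4.30, 4.33, 4.90 and 4.41 in the treated livers. Treated replicate 3 and control replicates 1 and 4 were high and the other 5 livers low. The difference was -0.095 ± 0.15 (95% interval -0.43 to 0.24, limma adjusted p = 0.943), and it depended on single livers. It was -0.23 without treated replicate 3, and -0.034 and -0.043 without treated replicates 1 and 2. A signal this near background compresses differences, so a larger change of the transcript could be hidden.

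Usp2, the deubiquitinating enzyme, had the largest difference of the 9 and one of the widest spreads. Its log2 signal was 6.47, 5.95, 6.64 and 6.44 in the controls and 5.84, 5.88, 6.54 and 6.30 in the treated livers. Control replicate 2 and treated replicates 1 and 2 were low and the other 5 livers high. The means of 6.37 ± 0.30 and 6.14 ± 0.34 (SD, n = 4 each) differed by -0.23 ± 0.19 (fold 0.852, 95% interval 0.633 to 1.15, limma adjusted p = 0.847). Leaving out control replicate 2 gave -0.37, and leaving out treated replicate 1 gave -0.13.

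Leaving out either of the 2 controls that stood apart in blood cell markers moved several of these differences, and 0 of the 9 genes passed without either. Without control replicate 1, the PAR bZIP genes Tef and Hlf differed by -0.017 and -0.18, Nfil3 by 0.16 and Usp2 by -0.20. In the same comparison the repressor genes Bhlhe40, Bhlhe41 and Ciart differed by -0.25, -0.033 and -0.035, and Dbp and Rora as given above. Without control replicate 4, the PAR bZIP genes Dbp, Tef and Hlf differed by -0.10, -0.11 and -0.27, Nfil3 by 0.094 and Rora by -0.18. Bhlhe40, Bhlhe41, Ciart and Usp2 then differed by -0.18, -0.079, -0.040 and -0.21. The signs were those found with all 8 livers in each case, while the Ciart difference shrank by more than 1.5 times without either liver, as did those of Dbp, Tef and Bhlhe41 without control replicate 1 and that of Dbp without control replicate 4. The Rora difference grew by more than 1.5 times without control replicate 1, and that of Tef without control replicate 4.

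**Figure D2:**
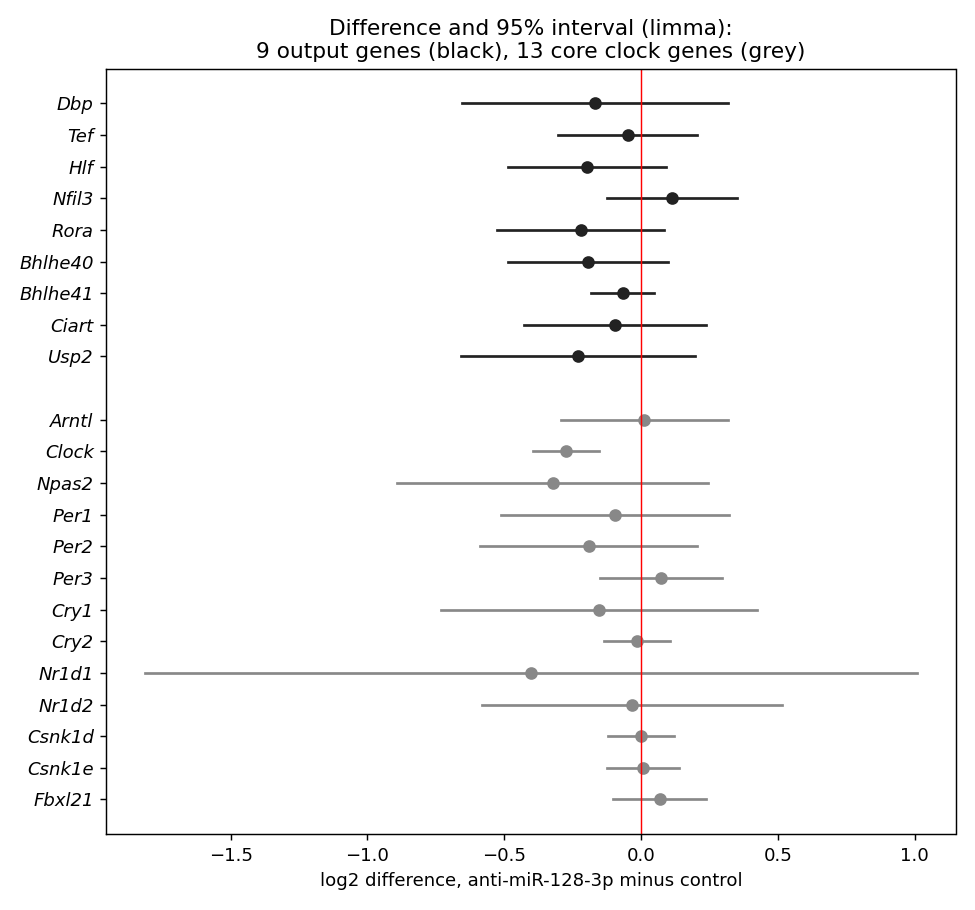
Log2 difference of each gene (point; x axis, anti-miR-128-3p minus control) with its 95% interval from limma (line) for the 9 output genes in black and 13 core clock genes in grey. All 9 black intervals cross 0, and Clock, at -0.27, is the only core clock gene whose interval does not.

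Variation between livers of 1 group was large for most of these genes, which set the width of the intervals. The SD within groups, pooled over control and treated livers, was 0.36 for Dbp, 0.32 for Usp2 and 0.25 for Ciart on the log2 scale. Set against genes whose mean signal lay within 0.5 log2 units of their own, these values stood at the 95.3, 94.6 and 95.8 percentile. Tef, Hlf, Nfil3, Rora and Bhlhe40 stood between the 78.4 and 86.4 percentile, and the dim Bhlhe41 at the 20.8 percentile. From the lowest to the highest of the 8 livers, Dbp spanned 1.83-fold, Usp2 1.75-fold, Bhlhe40 1.69-fold and Hlf 1.66-fold.

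The 9 genes did not sort the livers in a common order. Treated replicate 1 was below the mean of the 8 livers in 6 of the 9 genes, by 0.48 for Bhlhe40, 0.42 for Usp2, 0.35 for Dbp and 0.34 for Hlf on the log2 scale. Control replicate 1 was above the mean in 7 of the 9, by 0.53 for Dbp. Treated replicate 2 was high in Dbp (0.40 above the mean) and Tef (0.24) but low in Usp2 (0.37 below). Control replicate 3 was high in Hlf (0.39) and Usp2 (0.38) and low in Dbp (0.33 below).

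**Figure D3:**
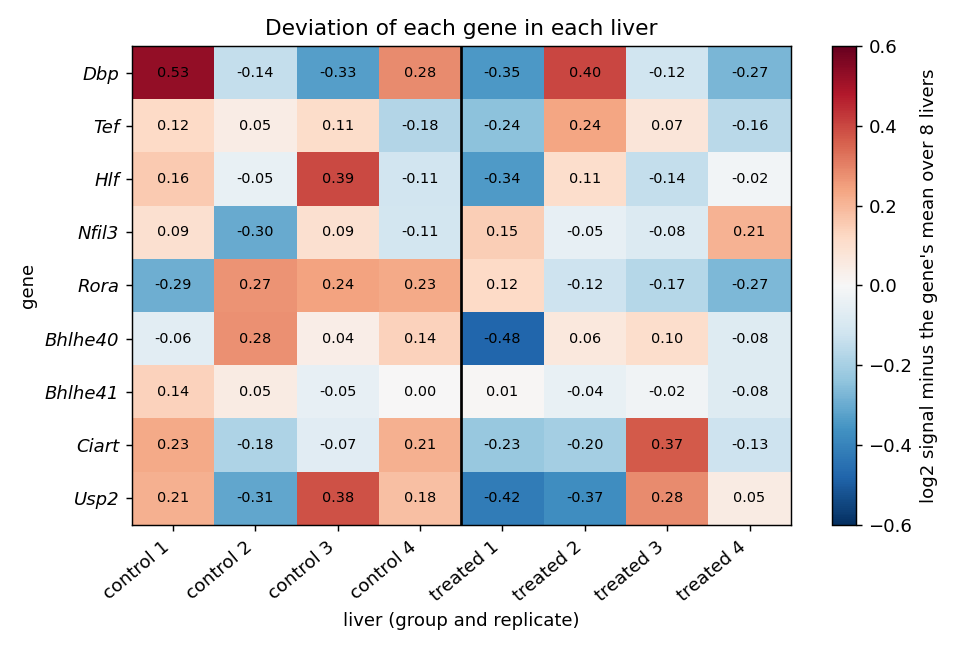
Deviation of each gene (rows) in each liver (columns) from that gene's mean over the 8 livers, in log2 units (red above, blue below, with the value printed). Treated replicate 1 is blue for 6 of the 9 genes and control replicate 1 red for 7, while Dbp and Usp2 have opposite colours in control replicate 3 and treated replicate 2.

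Relations between the genes across the 8 livers were computed for all 36 pairs, with exact two-sided permutation tests and adjustment over the 36. The clearest was between Bhlhe40 and Nfil3, which ran in opposite order in nearly every liver: Spearman's rho was -0.976 (exact permutation p = 0.000397, adjusted p = 0.0143). Pearson's r for that pair was -0.76 (exact permutation p = 0.0289, adjusted p = 0.638), so the rank order and not the linear fit passed the adjustment. Without control replicate 2 and treated replicate 4, the livers farthest from the median of Nfil3, r was -0.77. It was -0.96 within the 4 controls, -0.67 within the 4 treated livers and -0.72 with the group means removed. Adjusted over both kinds of coefficient together (72 tests), the rank relation had an adjusted p of 0.0286. The pairs were computed on the deposited values only and were not repeated under other normalizations. The array medians were highest in treated replicate 1, control replicate 1 and treated replicate 4 (5.12, 5.12 and 5.10). These livers were also the highest in Nfil3 and the lowest in Bhlhe40. Control replicates 2 and 4 (5.04 and 5.06) were the lowest in Nfil3 and the highest in Bhlhe40. Treated replicate 2 had the lowest median of all (5.04), with neither gene at an extreme. Control replicate 3 (5.07) was level with control replicate 1 in Nfil3, at 7.42. Treated replicate 3 (5.08) lay near control replicate 4 in both genes. The part of array level in the relation of Bhlhe40 and Nfil3 was not tested. The mean of Bhlhe40 lay above 98.3% of the negative control rows and that of Nfil3 above 94.7%. The 95th percentile of those rows ran from 7.40 to 7.53 over the arrays, so the Nfil3 mean, 7.32, lay below it.

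Ciart and Usp2, both known as targets of CLOCK-BMAL1, had the highest positive coefficients. Their rho was 0.857 (exact permutation p = 0.0107, adjusted p = 0.193) and their r 0.74 (exact permutation p = 0.0354, adjusted p = 0.638), neither of which passed. The Ciart signal lay above only 54.1% of the negative control rows, so its order over livers is that of a signal near background. Without control replicate 1 and treated replicate 3, the livers farthest from the median of Ciart, r was 0.69. Tef and Hlf, both PAR bZIP genes, had rho 0.738 (exact permutation p = 0.0458, adjusted p = 0.550) and r 0.68 (exact permutation p = 0.0619, adjusted p = 0.743), and r was 0.37 without control replicate 4 and treated replicate 1. Neither relation of Dbp with these relatives passed. With Tef, r was 0.44 (exact permutation p = 0.285, adjusted p = 0.974) and rho 0.595 (exact permutation p = 0.132, adjusted p = 0.907). That r was -0.15 without control replicate 1 and treated replicate 2. With Hlf, r was 0.20 (exact permutation p = 0.627, adjusted p = 0.974). Within the treated livers r was 0.93 with Tef and 0.77 with Hlf, and within the controls -0.24 and -0.39. In 21 of the 36 pairs the sign of r differed between the control and the treated livers, each over only 4 points.

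**Figure D4:**
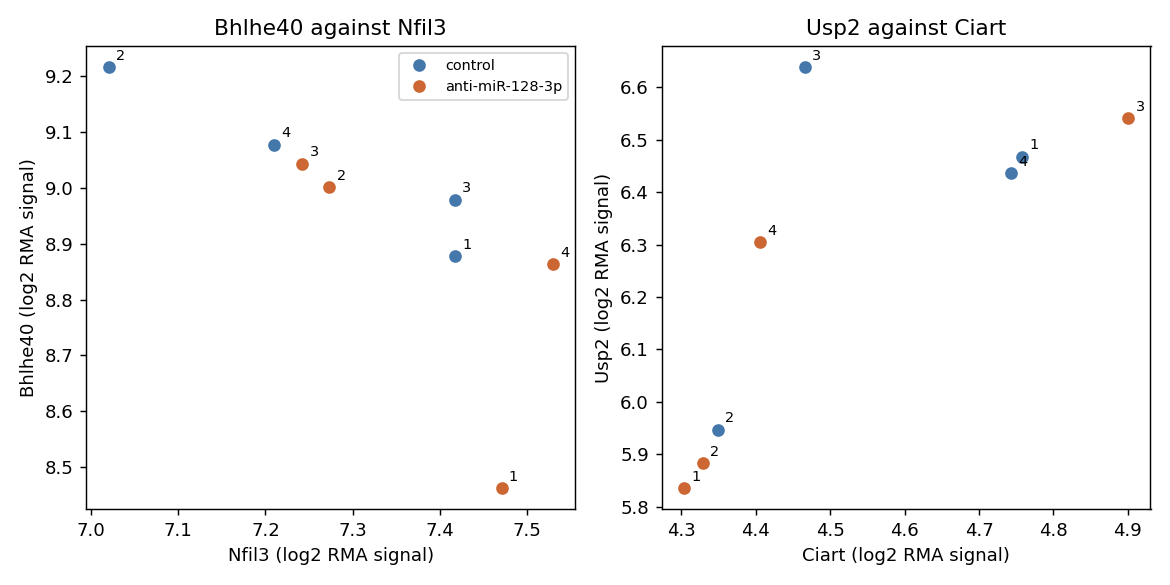
Bhlhe40 against Nfil3 (left) and Usp2 against Ciart (right) in the 8 livers, in log2 RMA signal, with control livers in blue, treated livers in orange and replicate numbers beside the points. Bhlhe40 falls as Nfil3 rises with both groups mixed along the same course (rho -0.976), and Usp2 is mostly higher where the near-background Ciart signal is higher (rho 0.857, adjusted p = 0.193 by the exact permutation test).

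A search for the genes whose pattern over the 8 livers was most like that of Dbp, Nfil3 and Usp2, among 11074 named protein-coding genes at or above the median signal, gave no gene of the clock lists. For Dbp the genes were Htra2 (r = 0.96), Hcfc2 (0.93) and Tfb1m (0.92). For Nfil3 they were Kctd17 (0.97), Cfap298 (0.97) and Ctrb1 (0.96), and for Usp2 Serinc3 (0.98), Ybx3 (0.96) and Klhl3 (0.95). Coefficients as high as these were picked out of many genes over 8 points and are given as a description.

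The core clock genes, which drive the 9 outputs, spread widely between livers for the most part. Their SDs were ranked against all genes, not against genes of similar signal as for the 9 outputs above. Csnk1d, Cry2, Clock and Csnk1e spread less, with SDs within groups at the 22.9, 23.6, 24.2 and 32.3 percentile of all genes. Of the 13 measured (15 listed), 9 were lower and 4 higher after treatment (median log2 difference -0.033). Of them 0 passed over all genes and 1, Clock, had an unadjusted p under 0.05, a share near the 7.63% of all genes that did. Clock was at 9.44, 9.51, 9.58 and 9.46 in the controls and 9.13, 9.30, 9.25 and 9.21 in the treated livers (log2 signal). All 4 treated livers lay below all 4 controls, by -0.27 ± 0.054 on average (limma adjusted p = 0.206). Clock was the only 1 of the 13 without overlap between the groups, which 4.41% of all genes also lacked.

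Its partner Arntl, which RORα activates and the REV-ERBs repress, differed by 0.011 ± 0.13, and the Clock paralogue Npas2 by -0.32 ± 0.25. The REV-ERBα gene Nr1d1 differed by -0.40 ± 0.62, with log2 signals from 7.76 to 10.1 in control and from 6.97 to 9.65 in treated livers. Its lowest value in each group was replicate 4, and its range was the widest of the 13 genes. Nr1d2, for REV-ERBβ, differed by -0.033 ± 0.24 and was also lowest in replicate 4 of each group (7.86 and 7.63), where Arntl (8.34 and 8.38) and Cry1 (7.09 and 7.34) were highest, a pattern noticed after the values were seen. Among the repressor genes, Per1 differed by -0.095 ± 0.18, Per2 by -0.19 ± 0.17, Per3 by 0.074 ± 0.098, Cry1 by -0.15 ± 0.25 and Cry2 by -0.015 ± 0.053. The kinase genes Csnk1d and Csnk1e differed by -0.00086 and 0.0072, and Fbxl21, whose product acts on CRY stability, by 0.068.

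Genes reported as targets of the PAR bZIP factors in liver were lower in 7 of the 9 measured (12 listed; median log2 difference -0.25). None passed over all genes, and 1 lower and 1 higher gene had an unadjusted p under 0.05, against 3.37% and 4.26% of all genes. Cyp7a1, the first enzyme of bile acid synthesis and a reported DBP target, was higher by 1.42 ± 0.43 (limma adjusted p = 0.460), in the direction opposite to the Dbp mean. Acot2, a mitochondrial acyl-CoA thioesterase, differed by -0.25 ± 0.08 with no overlap between the groups (limma adjusted p = 0.472). Alas1, which starts haem synthesis, differed by -0.91 ± 0.40 and the phenobarbital-inducible Cyp2b10 by -0.45 ± 0.25, neither passing (limma adjusted p = 0.655 and 0.740). The list had a median of -0.051 once control replicate 2 was left out.

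Other genes known to cycle in liver did not lean the same way. Of 11 measured (12 listed), 6 were higher and 5 lower (median log2 difference 0.15, and 0.070 and 0.072 without treated replicate 1 or 4), and 0 of them passed the adjusted threshold. Insig2, which retains SREBP in the endoplasmic reticulum, differed by -0.49 ± 0.10 with no overlap between groups (limma adjusted p = 0.228), and Nampt, the NAD salvage enzyme, by 0.24 ± 0.09 (limma adjusted p = 0.580). The uridine phosphorylase gene Upp2 differed by 0.42 ± 0.22 and the transferrin receptor gene Tfrc by 0.67 ± 0.37.

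Glucocorticoid and fasting genes, which follow the stress hormone and the time since the last meal, split 6 higher to 4 lower over 10 measured (12 listed; median log2 difference 0.057), and 0 of them had an unadjusted p under 0.05. Their median changed sign when control replicate 2 (-0.078) or treated replicate 3 (-0.026) was left out, and reached 0.19 without control replicate 3. Pck1, the gluconeogenic enzyme, differed by 0.11 ± 0.095, its coactivator gene Ppargc1a by 0.20 ± 0.20, the kinase gene Sgk1 by 0.13 ± 0.15 and the metallothionein gene Mt1 by 0.39 ± 0.45.

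Markers of other liver cells moved between livers as well, and their part in the values above was not tested. Kupffer cell markers were higher in treated livers in 8 of 8 (median log2 difference 0.52, 1 at an unadjusted p under 0.05), with mean log2 signals of 7.07 to 8.03 in control and 7.60 to 9.01 in treated livers. Treated replicate 1, low in 6 of the 9 clock outputs, had the highest of these, and without it the median was 0.28. Sinusoidal endothelial markers were lower in 7 of 8 (median -0.29, 2 at an unadjusted p under 0.05), with mean log2 signals of 7.89 to 8.47 and 7.74 to 8.30. Stellate cell markers, 4 higher and 3 lower of 7 (median 0.019, 3 at an unadjusted p under 0.05), had means of 7.41 to 7.56 and 7.58 to 8.24. That median covers members that went both ways: the collagen genes Col1a1 (1.62 ± 0.41) and Col3a1 (1.22 ± 0.35) had their 4 treated values above their 4 control values, and Reln differed by -0.29 ± 0.086 with overlapping groups (limma adjusted p = 0.342, 0.406 and 0.437). Neutrophil markers were lower in 8 of 8 (median -0.36, and 0.058 without control replicate 1), and cholangiocyte markers in 4 of 5 (median -0.023), with none of either at an unadjusted p under 0.05. Hepatocyte markers were lower in 5 of 7 (median -0.018), with Hnf4a (-0.24 ± 0.10, limma adjusted p = 0.606) the only one at an unadjusted p under 0.05. No marker list was at 0, since array signals have a background.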

How the data were processed

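The deposited values are log2 signals that the authors computed by RMA, per the submitters' processing notes, a method that corrects background, equalises array distributions and summarises probes. The RMA software version is not given in the sources used here. Of 72688 rows, 6732 control rows were left out. Probe sets that the platform annotation assigns to exactly 1 gene (31080), named through RefSeq GRCm38.p6, gave 30627 genes, each taken from its brightest probe set over all 8 arrays, without a filter on dim genes. limma 3.58.1 in R 4.3.3 (lmFit, eBayes, two-sided, no covariate) was fitted to all genes with Benjamini-Hochberg adjustment at 0.05. The number of arrays limits the precision. Pairs of genes were tested with exact permutations in Python 3.11.15. Both steps were tested on simulated data. The text names the 9 genes, every core clock gene, up to 4 genes of the pathway lists by smallest p, and the 3 genes most like Dbp, Nfil3 and Usp2. The genes and lists were chosen with earlier results of these data known. Alternatives were trend and robust moderation, array weights, filters on dim genes, the mean of probe sets, each probe set by itself, group medians, renormalization, median centring, the replicate number as a block and leaving out each array.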

Additional observations from a re-analysis of the deposited data

Results flagged for a closer look

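In 4 of 44 groups of 4 livers (22 genes, the 9 outputs and 13 core clock genes) a single liver lay far from the other 3 of its group by Dixon's criterion. Chance gives about 1 in 20 groups. Rora in control replicate 1 was at 8.26, against 8.78 to 8.82 in the other controls. Per3 in control replicate 1 was at 5.53, against 5.31 to 5.33. Cry1 in treated replicate 4 was at 7.34, against 6.26 to 6.40. Csnk1d in treated replicate 1 was at 8.42, against 8.45 to 8.46, a gap that is small on the log2 scale.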

How the results depend on the processing

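No alternative tried brought any of the 9 genes past the adjusted threshold; the smallest adjusted p among them was 0.378, for Rora without control replicate 1. Over all genes, 0 were called under each alternative except that leaving out single arrays gave 0 to 1, the 1 being Irgm1 without control replicate 4 (limma adjusted p = 0.0375); this gene was named after its values were seen. The median over the 9 genes ran from -0.18 (without treated replicate 3) to -0.035 (without control replicate 1) when single arrays were left out, and was -0.095 with probe sets averaged per gene. The Tef difference ran from -0.13 to 0.026 when single arrays were left out, 0.026 being without treated replicate 1, and the third probe set of Rora by itself gave 0.13; no other gene of the 9 changed sign under any setting. The count of genes with lower treated means under these settings was added after the data were seen. With genes below the median signal left out, Bhlhe41 and Ciart were not tested and 6 of the remaining 7 were lower. With the replicate number as a block, 0 genes were called (smallest limma adjusted p = 0.463, 2252 at an unadjusted p under 0.05) and the median was -0.17. Over all genes, same-numbered livers did not deviate together (r from -0.12 to -0.020, best partner in 0 of 4), although replicate 4 of both groups was lowest in Nr1d1 and Nr1d2 and highest in Arntl and Cry1. The labels give no other link between the numbers. With 4 arrays a group, and signals near background for Bhlhe41 and Ciart, small changes could not be detected. The means of Usp2, Dbp, Tef and Hlf lay above 85.6%, 89.5%, 91.1% and 92.3% of the negative control rows, and that of Rora above 98.0%.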
